A study of Mus musculus with 8 samples.

Results

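The stretch of mouse chromosome 4 that flanks Prkaa2, the gene deleted in the AMPKα2 KO mice, was described through its alternative polyadenylation sites (APSs), the places where the 3′ ends of polyadenylated transcripts were read. Members were all APSs on chromosome 4 of GRCm38 between positions 80000000 and 130000000, without those of Prkaa2 and of 1 further gene, and no read count entered that rule. It gave 1068 APSs of 56483 in the whole table, and the rest of chromosome 4 held 2006. Of the members, 952 were assigned to 308 genes and 116 to no gene, and 862 belonged to protein coding genes. Gastrocnemius muscle of 2 KO and 2 WT male mice was profiled in each of 2 models, AMPKα1 and AMPKα2, with 1 library per mouse and 8 libraries in total. In each KO model part of the catalytic domain was deleted from the gene of 1 catalytic subunit of the kinase, Prkaa1 in AMPKα1 KO and Prkaa2 in AMPKα2 KO. The sample labels give adult C57BL/6 animals for all groups, whereas the methods of the study place the AMPKα1 KO line on 129S2/SvPas and the AMPKα2 KO line on C57BL/6. The KO mice were about 6 weeks old in AMPKα1 and about 8 weeks old in AMPKα2 at sampling, and no age was stated for the WT mice. Age, strain and model cannot be told apart, so no test compared levels between the models.

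AMP-activated protein kinase is a sensor of cellular energy whose catalytic α subunits come from a pair of genes on different chromosomes. A knockout line carries the DNA around its targeted gene along with the deletion, and in lines made in embryonic stem cells of one strain and bred to another that flanking DNA can stay that of the first strain. The reference assembly holds, besides the chromosomes, scaffolds that carry further versions of some regions. A comparison of KO with WT at neighbours of the targeted gene therefore describes the gene's surroundings, and the same comparison in the other model, whose targeted gene lies on another chromosome, serves as a control.

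The libraries held 2311242 to 3549156 counted reads, of which 14707 to 50326 fell on members, and a count of 3 reads, taken as the smallest the depth can show, stood for 0.845 to 1.30 CPM, reads scaled to a common library size. Intervals and such limits cover counting error only. Of the members, 395 had at least 16 reads over the 4 AMPKα2 libraries and were tested there, 855 were tested in AMPKα1, and 136 had no read in AMPKα2. Skeletal muscle fibre markers summed to between 36689 and 47622 CPM in the AMPKα2 libraries. In AMPKα2 WT 1 the adipocyte markers reached 449 CPM against 106 to 138 in the other 3 libraries of that model. Macrophage markers reached 212 there against 76.0 to 102 and Schwann cell markers 218 against 49.8 to 84.9. In AMPKα1 KO 2 the adipocyte markers reached 2024 CPM against 324 to 443 in the other 3 libraries, and macrophage markers 331 against 95.3 to 119. Schwann cell markers reached 1178 CPM in AMPKα1 WT 2 against 501 to 582. Skeletal muscle fibre markers summed to 59422 and 49794 CPM in AMPKα1 KO against 84786 and 71554 in AMPKα1 WT. The part of these cells in the values below was not tested. In such bulk samples, fewer cells of a type and less RNA per cell cannot be told apart. The AMPKα2 KO libraries held 40 and 71 reads over the 7 APSs of Prkaa2, beside 87 and 62 for WT, which differed by −0.03 ± 0.28 on the log2 scale (SE, adjusted p = 0.988, edgeR). A 3′ end outside the deleted part of a gene does not check a deletion.

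The 4 APSs of 3 genes near the distal end of the interval carry the differences described first. For that reason the 30 transcript bases that end at each are shown, 5′ to 3′ on the plus strand of GRCm38. They come from transcripts of the mouse GENCODE release M21. Capitals mark the polyadenylation hexamer AATAAA, and all 4 APSs lie in an annotated UTR.
Zbtb8os, chr4:129347004-129347033: atttaaagtgtggctttcagaaatggaaaa
Tmem234, chr4:129607852-129607881: tacagagaaccctgtctcgaaaaaccaaaa
Ptp4a2 proximal, chr4:129848373-129848402: aaaaaaaaaaaaaaacaaaaaaaaccaaca
Ptp4a2 distal, chr4:129849950-129849979: tgaagaacAATAAAacatattttacatgct
The distal Ptp4a2 site has the hexamer 22 bases upstream of the read end, while no AATAAA or ATTAAA was found upstream of the other 3. Among the 375 members in an exon with enough transcript sequence, 32.5% had AATAAA within 40 bases upstream on the transcript strand and a further 12.0% had ATTAAA. These shares were 36.9% and 10.9% over 762 APSs of the rest of chromosome 4. The letters are the reference's, not those of the mice.

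Ptp4a2, which encodes a membrane-anchored protein tyrosine phosphatase of the PRL family, had fewer chromosome 4 reads in AMPKα2 KO mice at its distal APS and in sum, and neither call held once the reads of its copy on a scaffold were added, at adjusted p = 0.820 and 0.600 in edgeR's test. At the distal APS, the KO libraries held 0 and 2 reads where WT held 164 and 142, or 0.323 ± 0.457 against 50.1 ± 11.6 CPM (SD, n = 2). The groups stood far apart, and the log2 fold change was −6.88 ± 0.71 (SE, adjusted p = 0.0299, edgeR). Because the KO group held only 2 reads, the ratio of WT to KO is known only roughly, 124-fold with a 95% exact counting interval of 34 to 1030. It was the single differentially expressed APS (DE-APS, adjusted p under 0.1) of the interval, 1 of 395 (0.253%) against a background of 0.056% over the 23218 APSs tested, of which 0.0258% were higher and 0.0301% lower, and 0.123% of the rest of chromosome 4. Without AMPKα2 KO 2 or without AMPKα2 WT 2 the call was lost, at log2 fold changes of −10.1 and −6.65.

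The proximal APS of Ptp4a2 lies upstream in the same UTR and gave 71 and 178 reads in AMPKα2 KO against 503 and 305 in WT. Both KO libraries were below both WT libraries, with a log2 fold change of −1.45 ± 0.36 (SE) and an adjusted p of 0.502 in edgeR's test. Summed over its APSs, Ptp4a2 reached 71 and 181 reads for KO, 676 and 454 for WT, and fell by 1.81 ± 0.28 on the log2 scale (SE, adjusted p = 0.0174, edgeR). On the chromosomal reads relative site usage differed too, and the F-test of edgeR for unequal change among the sites of a gene gave an adjusted p of 0.0185 for Ptp4a2 and the Simes test 0.0627, while the F-test gave 0.877 with the scaffold copies added. It was 1 of 59 interval genes with at least 2 tested sites (1.69%), against 0.104% of 3838 genes, and the call was lost without AMPKα2 KO 1 or without AMPKα2 WT 2.

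Tmem234, which encodes a small membrane protein, held 0 and 1 reads at its APS with AMPKα2 KO against 36 and 20 with WT. Its summed reads fell by 5.10 ± 0.79 on the log2 scale (SE, adjusted p = 0.0184, edgeR), and the ratio of WT to KO reads was 45.3-fold with an exact 95% counting interval of 7.80 to 1820. Zbtb8os, whose product archease assists the ligase that joins tRNA exons, held no read in KO against 14 and 14 in WT, which is at least 3.83-fold lower with the KO libraries set to 3 reads each. Its summed reads differed by −6.68 ± 1.33 (log2, SE, adjusted p = 0.0927, edgeR), a value that depends on the prior count because the KO group is at 0. As single APSs, Tmem234 and Zbtb8os had adjusted p values of 0.292 and 0.458 in edgeR's test. These 3 genes were the only interval genes called of 212 tested, so that 1.42% were called lower and none higher, against 0.303% lower and 0.37% higher over 10552 genes. No interval gene was called higher by edgeR, and 7 had an unadjusted p under 0.05 in that direction. The call of Tmem234 was lost without AMPKα2 KO 1 or WT 1, that of Zbtb8os without either KO library and that of Ptp4a2 without AMPKα2 WT 1, while without either WT library Zbtb8os had too few reads to be tested.

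The 3 genes have copies of the same name on 1 scaffold outside the assembled chromosomes, and there the direction was the opposite. In all, 4 of the 5 scaffold APSs examined pair with a chromosomal APS of the same symbol and strand. This pairing was looked for after the values were seen. At the scaffold copy of Zbtb8os the AMPKα2 KO libraries held 10 and 10 reads and the WT libraries 0 and 0. At that of Tmem234 they held 32 and 45 against 0 and 0, and at that of the distal Ptp4a2 site 67 and 151 against 14 and 8. At the copy of the proximal Ptp4a2 site they held 44 and 115 against 22 and 19. Every KO library was above every WT library at all 4 scaffold APSs, as was so at 18.8% of all APSs tested in AMPKα2. The scaffold sites of Tmem234 and distal Ptp4a2 were higher, by 8.44 ± 0.92 and 3.55 ± 0.44 on the log2 scale (SE, adjusted p = 0.0744 and 0.0777, edgeR), the former against a WT group at 0. Those of Zbtb8os and proximal Ptp4a2 had adjusted p values of 0.450 and 0.456 in the same test.

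As a share of the reads at both copies, the scaffold took 61.0% (95% exact binomial interval 53.5 to 68.1%) and 59.6% (54.9 to 64.2%) of the Ptp4a2 reads in the AMPKα2 KO libraries. In AMPKα2 WT it took 5.12% (3.61 to 7.02%) and 5.70% (3.79 to 8.18%). In the AMPKα1 libraries it took 2.87% to 5.50% in KO and 3.89% to 11.2% in WT. The split was uneven between the Ptp4a2 sites, since in AMPKα2 KO the scaffold held 100% and 98.7% of the distal reads and 38.3% and 39.2% of the proximal reads. For Tmem234 the share was 100% and 97.8% in AMPKα2 KO, and 0 of 36 and 0 of 20 reads in WT, which allow shares of up to 8.33% and 15% by a limit of 3 reads and of 9.74% and 16.8% by the exact interval. For Zbtb8os it was 100% in both KO libraries, on 10 reads each, and 0 of 14 reads in each WT library, which allows up to 21.4% by the limit of 3 reads and 23.2% by the exact interval. No AMPKα1 library held a scaffold read of Zbtb8os, over 21 to 102 reads, and none held more than 1 of Tmem234.

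**Figure D1:**
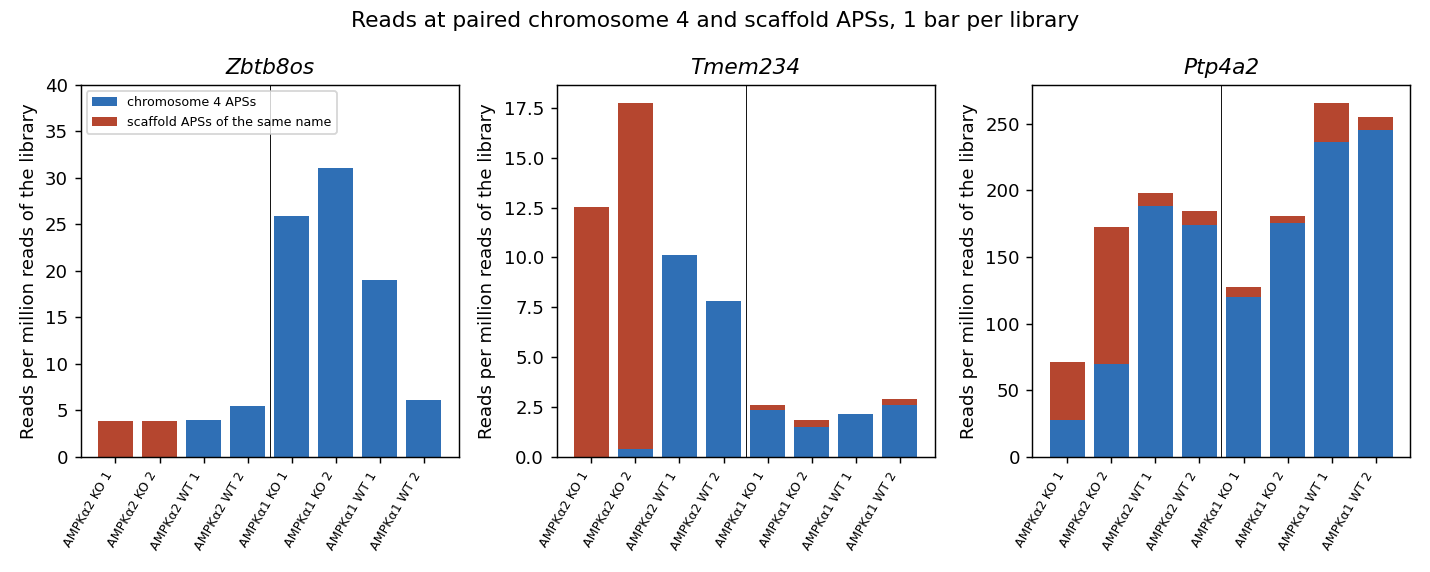
Reads at the chromosome 4 APSs (blue) and at the paired scaffold APSs (red) of Zbtb8os, Tmem234 and Ptp4a2, in CPM of the library total (y axis, from 0), with 1 bar per library (x axis). In the 2 AMPKα2 KO libraries the red part is 100% of Zbtb8os, 97.8% or more of Tmem234 and about 60% of Ptp4a2, while in AMPKα2 WT it is 0 for the first 2 genes and at most 5.70% for Ptp4a2.

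With the reads of both copies added before the fit, none of the 3 differences remained past the threshold. Zbtb8os then held 10 and 10 reads in AMPKα2 KO against 14 and 14 in WT, and its log2 fold change became −0.06 ± 0.53 (SE, adjusted p = 0.985, edgeR). Tmem234 held 32 and 46 against 36 and 20, and its fold change turned to 0.93 ± 0.34 (unadjusted p = 0.0193 and adjusted p = 0.445, edgeR). At its paired APSs Ptp4a2 held 182 and 446 against 703 and 474, with log2 fold changes of −0.82 ± 0.36 at the proximal and −0.37 ± 0.37 at the distal APS (SE, adjusted p = 0.662 and 0.820, edgeR). Over all its APSs and their copies the gene stood at −0.57 ± 0.27 (unadjusted p = 0.0552 and adjusted p = 0.600, edgeR). Over the interval, 0 APSs, 0 genes and 0 genes in site usage were then called by edgeR, with 22 APSs at an unadjusted p under 0.05. Which strain the scaffold sequence represents is not given in the sources used here, and what set the split of reads between copies was not tested.

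The last megabase of the interval also held few reads in AMPKα2 KO, most of them from these 3 genes. Its 33 members summed to 34.1 and 81.5 CPM in AMPKα2 KO, scaled by library total, and to 222 and 209 in WT. Without the 3 genes, 25 members summed to 6.27 and 11.2 CPM in KO against 17.2 and 18.7 in WT, on 16 and 29 reads against 61 and 48. Of the 27 members there with a read in AMPKα2, 14 (51.9%) had reads in WT and in neither KO library, and 1 (3.70%) had reads in KO and not in WT. Without the 3 genes these were 10 (52.6%) and 1 (5.26%) of 19. Before that megabase the interval counts were 93 (10.3%) and 68 (7.51%) of 905, and over all APSs the shares were 11.7% and 6.23%. These sets of APSs were not matched for read depth, and AMPKα2 WT 1 was the deepest AMPKα2 library, with 3549156 reads. The boundary and the omission of the 3 genes were set after the values were seen. The paired chromosomal and scaffold positions differed by 128397761 to 128400633 bases. Whether the scaffold also carries copies of the other 25 members, at sites below the 16 reads kept per APS, was not tested. The values of those members are chromosomal reads only. The other 2 tested APSs there are assigned to Sync, an intermediate filament protein of muscle, with 3 and 10 reads in KO against 11 and 14 in WT, and to Rbbp4, a histone-binding protein, with 8 and 12 against 22 and 14. Both lie on the strand opposite Rbbp4, in an exon of the noncoding gene Gm26722 of GENCODE. Their fold changes of −0.77 ± 0.69 and −0.54 ± 0.52 (log2, SE) had unadjusted p values above 0.3, with adjusted p = 0.803 and 0.810 in edgeR's test. The neighbouring megabase held only 3 members and the 1 before it 26, of which 3 had reads in WT alone and 3 in KO alone. Outside the upper bound the next APS, of Col16a1, had 0 and 2 reads in KO against 3 and 5 in WT, and the last inside it was the distal Ptp4a2 site. At the lower bound, the first APS inside, at 80002761, held 5 and 9 reads in KO against 16 and 8 in WT, and the last outside, at 79759117, had none in AMPKα2.

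Over the whole interval the share of members at an unadjusted p under 0.05 was near the background. In AMPKα2 KO, 14 members were higher (3.54%) and 12 lower (3.04%), together 6.58% of 395. Of all APSs 5.11% were higher and 2.49% lower, together 7.59%. On the rest of chromosome 4, with 813 tested, 3.81% were higher and 3.44% lower, together 7.26%. Without the last megabase, 14 were higher and 8 lower, or 5.66% of 389. The median log2 fold change of the members was −0.02, beside −0.04 for the rest of the chromosome and 0.01 for all APSs, and the median absolute value was 0.49 beside 0.51 and 0.52. KO and WT libraries did not overlap at 141 members (35.7%), which compares with 39.7% of all APSs.

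**Figure D2:**
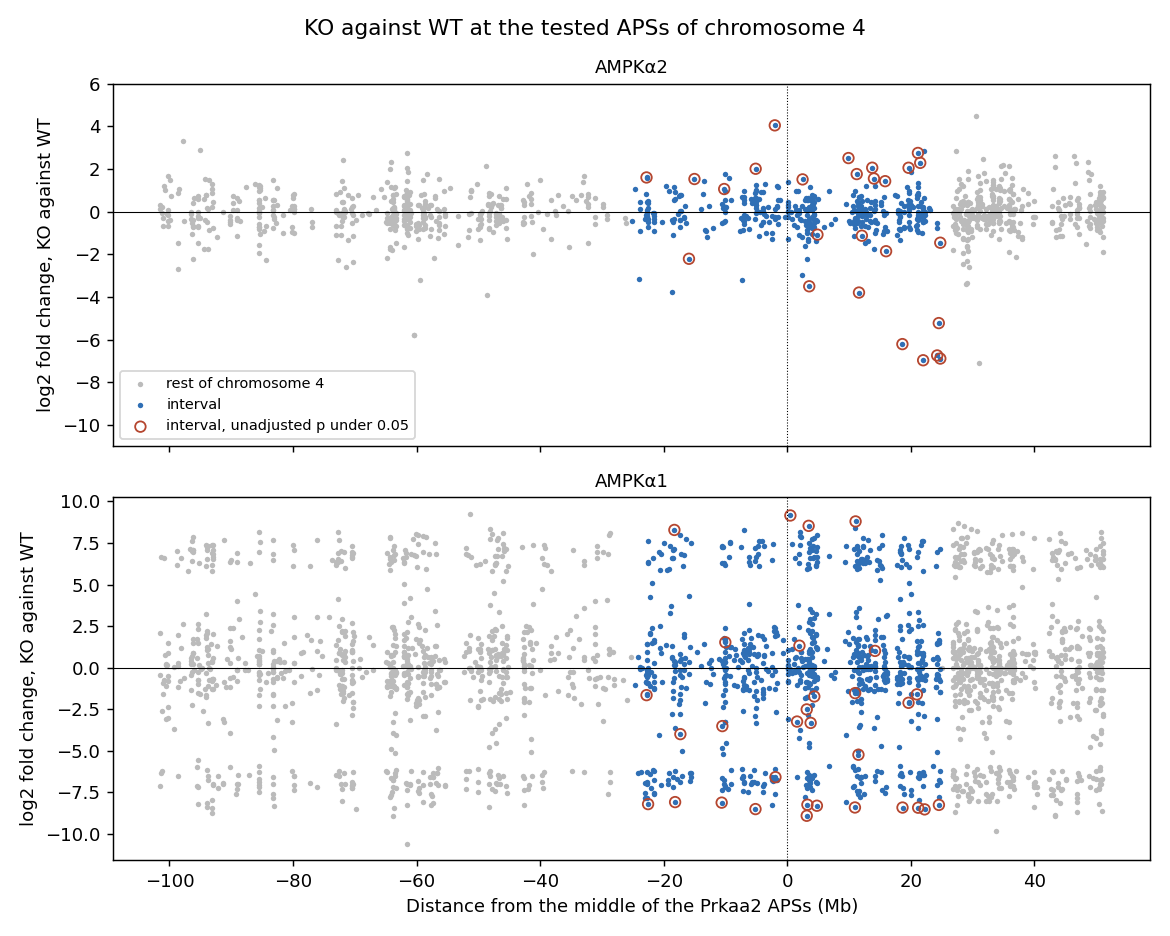
Log2 fold change of KO against WT (y axis) for each tested APS of chromosome 4 by its distance from Prkaa2 in Mb (x axis), in AMPKα2 (top) and AMPKα1 (bottom), with members in blue, the rest of the chromosome in grey and members at an unadjusted p under 0.05 circled. In AMPKα2 the members near Prkaa2 scatter about 0 with a median of −0.02 over the interval, and the lowest values include Ptp4a2 at −6.88 and Zbtb8os at −6.74 near 25 Mb.

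The closest neighbours of Prkaa2 showed no difference past the adjusted threshold. The nearest tested APSs lay 307 kb below and 75.0 kb above it, and the 5 nearest genes on each side had 26 tested APSs, of which 0 reached an unadjusted p under 0.05 in edgeR's test. Their fold changes ran from −1.29 to 1.38 on the log2 scale, with a median of 0.06. Plpp3, a lipid phosphate phosphatase, is the first gene above, and at its most read APS held 55 and 95 reads in KO against 97 and 60 in WT (log2 fold change 0.22 ± 0.35 SE, adjusted p = 0.885, edgeR). Dab1, an adaptor of reelin signalling, is the first below, and held 16 and 37 against 53 and 24 (−0.24 ± 0.44, adjusted p = 0.910, edgeR). The groups overlapped at Dab1, whereas at Plpp3 both KO libraries, at 26.9 and 30.7 CPM, stood above WT at 24.8 and 24.7.

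Further below lie the mitochondrial protease gene Oma1, the nucleotide sugar transporter gene Slc35d1 and the noncoding genes Gm12716 and Gm12718. Oma1 held 26 and 42 reads in KO against 38 and 31 in WT, and Slc35d1 held 8 and 17 against 25 and 5. Gm12718 came closest to the threshold on that side, with 29 and 46 reads against 11 and 25 at an antisense site (1.20 ± 0.61, unadjusted p = 0.0826 and adjusted p = 0.676, edgeR). In the gene level fit the same reads gave 1.37 ± 0.53 (unadjusted p = 0.0291 and adjusted p = 0.520, edgeR). Above lie Gm12728, the deubiquitinase gene Usp24, the cochaperone gene Ttc4 and the DNA-binding protein gene Ssbp3. Usp24 held 16 and 36 reads against 41 and 20, Ttc4 13 and 23 against 41 and 31, and the UTR site of Ssbp3 12 and 11 against 20 and 11. The lowest p of the 26 sites, 0.0650 unadjusted in edgeR's test, came from an internal UTR site of Plpp3 with 3 and 10 reads in KO against 23 and 15 in WT.

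In windows of 5 Mb the shares at an unadjusted p under 0.05 ran from 2.33% to 14.3%. In the window from 105 to 110 Mb that starts at Prkaa2, 3 of 76 tested APSs passed (3.95%), and in the one before it 1 of 33 (3.03%). The window from 125 to 130 Mb had 7 of 49 (14.3%), 4 of them in the last megabase, and the equal share from 110 to 115 Mb rested on 1 of 7 APSs. Zbtb8os and the distal Ptp4a2 site lie 24.3 and 24.8 Mb above Prkaa2, so that the sites with scaffold copies were among the most distant from the targeted gene on that side.

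**Figure D3:**
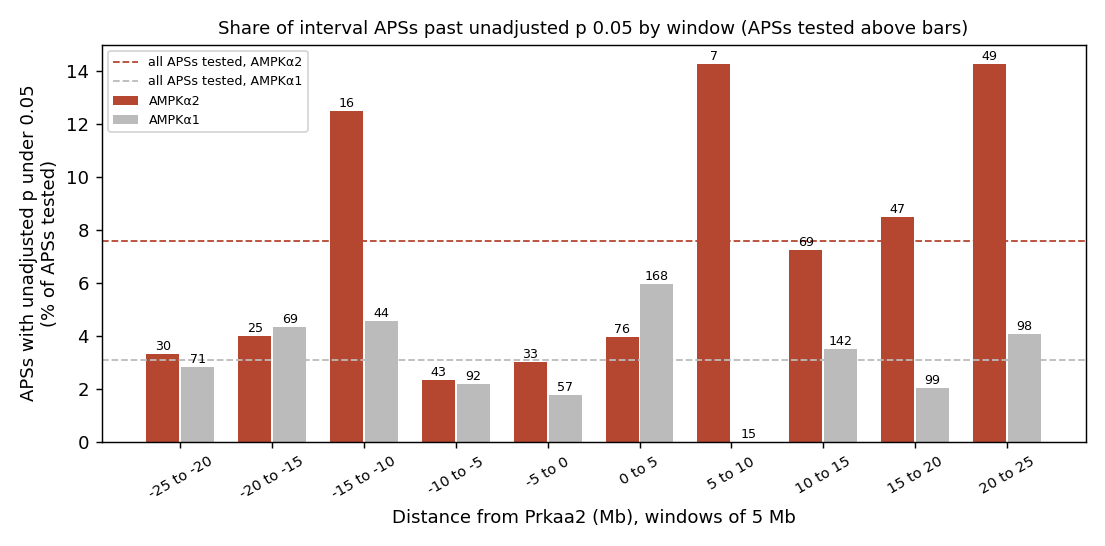
Share of tested interval APSs with an unadjusted p under 0.05 (y axis, %) in 5-Mb windows by distance from Prkaa2 (x axis), for AMPKα2 (red) and AMPKα1 (grey), with the number tested above each bar and the share over all APSs as dashed lines (7.59% and 3.07%). The AMPKα2 bars on either side of Prkaa2 stand at 3.03% and 3.95%, and the highest are 14.3%.

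Beyond the scaffold genes, the members with the lowest p in AMPKα2 were mostly shallow, and none passed adjustment in edgeR's test. Highest in rank was an APS at 126600642 on the plus strand with no gene, which held 42 and 71 reads in KO against 17 and 11 in WT, or 21.8 ± 1.68 against 4.43 ± 0.13 CPM (SD, n = 2). Its fold change was 2.29 ± 0.42 on the log2 scale (SE, adjusted p = 0.331, edgeR), and DESeq2 called it at an adjusted p of 0.0560. A site antisense to Glis1, a zinc finger transcription factor gene 2.49 Mb from Prkaa2, held 71 and 98 reads in KO against 25 and 42 in WT, with no overlap and an adjusted p of 0.626 (edgeR). A site antisense to Slc2a1, the gene of the glucose transporter GLUT1, held 99 and 54 against 48 and 24, or 48.5 and 17.4 CPM against 12.3 and 9.86, so that the KO libraries lay further from each other than KO 2 did from WT. Libraries were strand specific, so these antisense APSs were counted apart from sense APSs, but the gene sums add the antisense APSs assigned to a gene.

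Other APSs with higher levels in KO were a UTR site of Nfib, a transcription factor of the nuclear factor I family (11 and 17 reads against 6 and 5), a coding exon site of Pgm2, a phosphoglucomutase gene that GENCODE names Pgm1 (15 and 11 against 4 and 4), and an intronic site of the splicing factor gene Sf3a3 (9 and 8 against 3 and 2). A UTR site of Cmpk1, a pyrimidine nucleotide kinase gene, held 6 and 13 reads against 4 and 0, and a UTR site of Map7d1, a microtubule-associated protein gene, 5 and 19 against 3 and 1. The site at 118832023, assigned to no gene but antisense to Olfr1333 in GENCODE, held 18 and 30 against 9 and 5. The site at 90052605, without a gene, held 16 and 18 against 6 and 8. The log2 fold changes of these APSs ranged from 1.53 to 2.75, and all of them had adjusted p values of 0.502 or more in edgeR's test. Of the 14 members higher at an unadjusted p under 0.05, 5 were antisense to a gene and 4 in an exon, and 9 (64.3%) had no read in any AMPKα1 library, as had 28.1% of the 395 tested. Of those 395, 55.9% lay in an exon and 7.59% were antisense.

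Among lower members, several KO values were at or next to 0. A coding exon site of Ndufs5, a subunit of respiratory complex I, held 0 and 0 reads in KO against 16 and 5 in WT, at least 2.52-fold lower. An intronic site of Prdx1, a peroxide-reducing enzyme, held 0 and 1 against 15 and 6, a ratio of 17.0 with an exact 95% counting interval of 2.73 to 703. The site without a gene at 127077026 held 0 and 0 against 4 and 25, at least 4.63-fold lower, and its WT libraries stood far apart, at 1.02 and 10.3 CPM. An APS of Faf1, a ubiquitin-binding regulator of cell death, was better covered, with 15 and 20 reads against 50 and 40, and fell short of the adjusted threshold at −1.08 ± 0.43 (log2, SE, adjusted p = 0.632, edgeR). A coding exon site of Zmpste24, the protease that matures lamin A, held 2 and 5 against 18 and 13, and a site antisense to Mtap, which recycles methylthioadenosine, 1 and 3 against 13 and 10. The site at 108635542, assigned to no gene but in an intron of Gm17354 in GENCODE, held 0 and 1 against 12 and 5. None of the named genes among these has an APS of the same name on the scaffold. All these sites had adjusted p values of 0.494 or more in edgeR's test. Of the 12 lower members, 8 (66.7%) lay in an exon and 4 (33.3%) had no read in any AMPKα1 library.

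**Figure D4:**
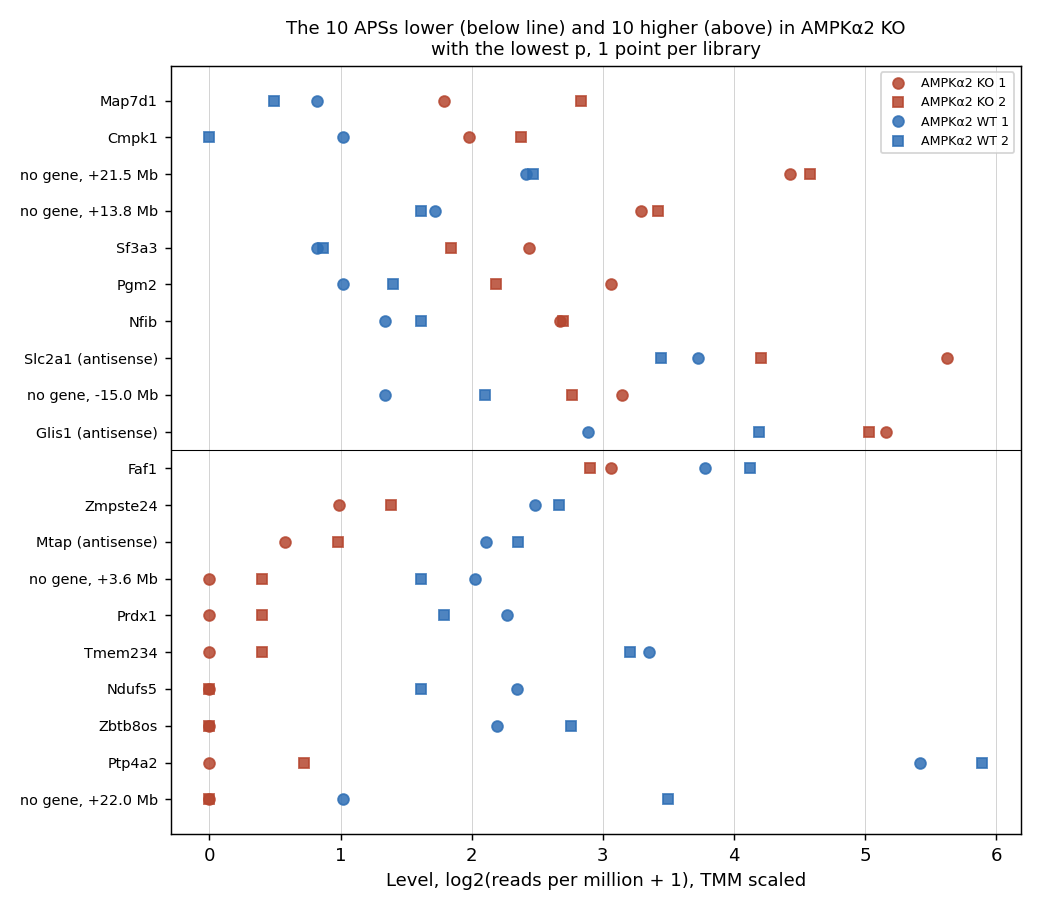
Level of the 10 lower and 10 higher APSs with the lowest p in AMPKα2 (y axis, 1 line per APS), on the log2 scale with 1 added to TMM-scaled CPM (x axis), with 1 point per library in KO (red) and WT (blue). The red and blue points do not overlap on any line, which follows largely from picking APSs by p in these same libraries. KO and WT did not overlap at 39.7% of all APSs tested. The KO points of Ptp4a2, Tmem234, Zbtb8os, Ndufs5 and Prdx1 lie at or near 0.

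Grouped by role, the interval genes gave 1 called gene in 6 lists, Ptp4a2 on its chromosomal reads. The lists were drawn up with earlier results of these data known. Of 20 tested genes of energy and lipid metabolism, 0 were called by edgeR, 1 was higher and 1 lower at an unadjusted p under 0.05, and the median log2 fold change was 0.11. Mtap held 1 and 7 reads in KO against 23 and 16 in WT, of which its antisense site supplied 1 and 3 against 13 and 10 (−1.89 ± 0.62, SE, adjusted p = 0.375, edgeR), and Slc2a1, nearly all from its antisense site, 101 and 55 against 53 and 27 (1.56 ± 0.51, adjusted p = 0.415, edgeR). The abundant gene Uqcrh, which encodes a subunit of respiratory complex III, held 300 and 518 against 743 and 457, a fold change of −0.13 ± 0.23.

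Of 14 signalling genes only Ptp4a2 was called, 2 were higher and 2 lower at an unadjusted p under 0.05 with Ptp4a2 among the latter. With its scaffold copy added Ptp4a2 passed neither threshold (adjusted p = 0.600, edgeR). In the list 3 of 14 had fold changes above 0, as had 5232 of all 10552 genes tested. On chromosomal reads the median was −0.48 against −0.0046 for all genes. Mast2, a kinase, held 131 and 156 reads in KO against 139 and 107 in WT (0.67 ± 0.27, SE, adjusted p = 0.536, edgeR). Of 18 genes of transcription and chromatin, 0 were called by edgeR and 1 was lower at an unadjusted p under 0.05, Zmym4, with 0 and 4 reads against 11 and 11. Jun, an immediate early transcription factor, held 142 and 267 against 210 and 175 (0.45 ± 0.26, adjusted p = 0.666, edgeR). Of 16 genes of RNA binding and translation, 0 were called and 1 was lower at an unadjusted p under 0.05, Mrps15 of the mitochondrial ribosome, with 32 and 74 against 145 and 79 (−0.67 ± 0.29, adjusted p = 0.567, edgeR). Sf3a3 followed, at 0.61 ± 0.42.

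The remaining lists gave no gene at an unadjusted p under 0.05 in edgeR's test, neither the 9 tested of cytoskeleton, muscle and matrix nor the 8 of protein turnover. Their lowest p values came from Macf1, a linker of actin and microtubules, with 20 and 28 reads in KO against 68 and 39 in WT, Col8a2, a short-chain collagen, with 8 and 7 against 5 and 3, the ubiquitin-conjugating enzyme gene Ube2u, with 13 and 24 against 18 and 12, and Plaa, with 7 and 9 against 23 and 12. Over all 212 interval genes, 7 were higher and 8 lower at an unadjusted p under 0.05 (7.08%), against 8.51% of all genes.

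**Figure D5:**
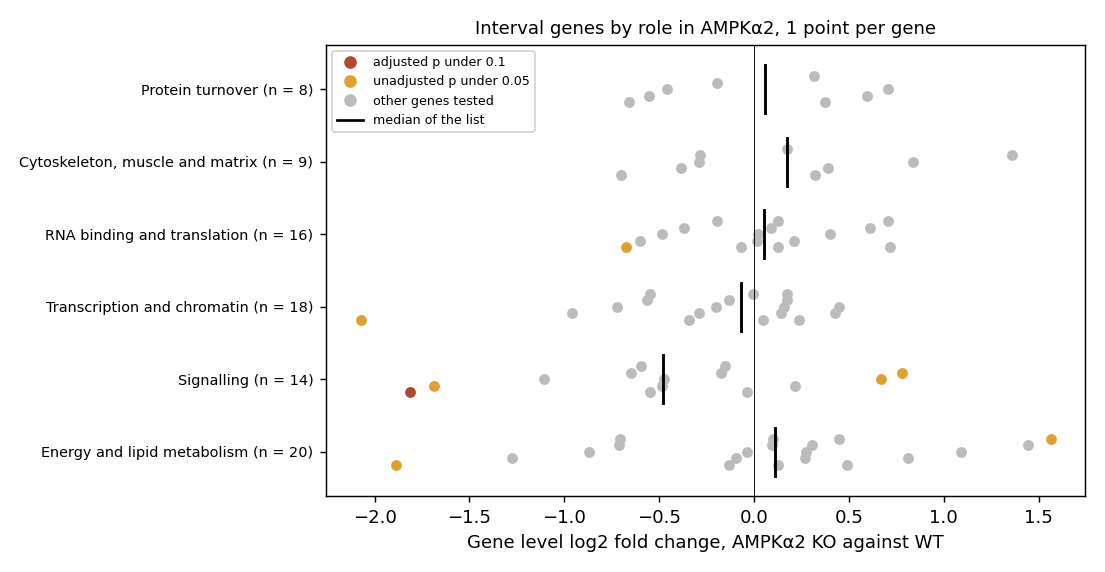
Gene level log2 fold change of AMPKα2 KO against WT (x axis) for the tested interval genes of 6 role lists (y axis, n genes), with 1 point per gene coloured by its p and a bar at each list's median. On chromosomal reads Ptp4a2, at −1.81, is the only gene past the adjusted threshold, and the medians run from −0.48 to 0.17.

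In AMPKα1, where the targeted gene lies on another chromosome, the interval gave no DE-APS in edgeR's test. Of 855 members tested, 7 were higher (0.819%) and 24 lower (2.81%) at an unadjusted p under 0.05, together 3.63%. On the rest of the chromosome 0.816% of 1593 APSs were higher and 2.76% lower, together 3.58%, and over all 44024 APSs 0.691% and 2.38%, together 3.07%. DESeq2 called 4 members of 316 with an adjusted p (1.27%), against 1.37% of all APSs. KO and WT did not overlap at 10.1% of members in the higher and 17.1% in the lower direction, against 9.01% and 18.2% of all APSs. Over all APSs, edgeR called 0.00454% in that model. The AMPKα1 libraries varied more from each other: the biological coefficient of variation was 156% against 38.8% in AMPKα2, and 596 of the 855 members (69.7%) had no read in at least 1 library, against 20 of 395 in AMPKα2. The AMPKα1 contrast was thus the less precise of the pair.

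The 3 genes with scaffold copies kept chromosomal reads in both AMPKα1 KO libraries. Zbtb8os held 89 and 102 reads in KO against 44 and 21 in WT, Tmem234 8 and 5 against 5 and 9, and the distal Ptp4a2 site 251 and 115 against 408 and 102. That site stood at −1.47 ± 0.81 on the log2 scale in AMPKα1 (SE, adjusted p = 0.543, edgeR). The Ptp4a2 sum stood at −0.85 ± 0.40, and at −0.91 ± 0.40 with copies joined (adjusted p = 0.763 for both, edgeR). The KO effect at distal Ptp4a2 differed between the models by −5.51 ± 1.40 on the log2 scale (SE), at Zbtb8os by −8.99 ± 2.44 and at Tmem234 by −4.75 ± 1.93, with adjusted p values of 0.272, 0.314 and 0.646 for the interaction in edgeR's test, so that a difference between the models was not established at these sites.

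A single member passed that interaction test, LOC102643247 at 99932323, an uncharacterized locus within an intron of the gene GENCODE names Pgm1. It held 0 and 1 reads in AMPKα1 KO against 119 and 190 in WT, and 16 and 25 in AMPKα2 KO against 49 and 18 in WT. The KO effect was −8.50 ± 1.36 in AMPKα1 (log2, SE, adjusted p = 0.168, edgeR) and −0.34 ± 0.46 in AMPKα2 (adjusted p = 0.872, edgeR). Their difference was 8.02 ± 1.25 (adjusted p = 0.0207, edgeR). The interaction fit shared its dispersions between the models, although the biological coefficient of variation was 156% in AMPKα1 and 38.8% in AMPKα2. The SE of the difference was below that of the AMPKα1 effect alone, and the call rests on that sharing. In AMPKα1 the ratio of WT to KO was 449-fold with an exact 95% counting interval of 79.9 to 17800. It was 1 of 1068 members (0.0936%), against 0.143% of all 56483 APSs. The interaction was no longer called when any 1 of the AMPKα2 libraries was left out, and the members called also changed with the AMPKα1 library left out.

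The other members with the lowest p in AMPKα1 included abundant sites and sites read in 1 genotype alone. A site antisense to Fhl3, a LIM domain protein gene of muscle, held 2425 and 481 reads in KO against 2368 and 6734 in WT, which overlapped as counts but not after scaling, at 632 and 126 against 1375 and 1899 CPM. Uqcrh held 845 and 552 against 1294 and 1068, and the UTR site of Nfib at 82295728 203 and 167 against 300 and 459. A UTR site of Zyg11b, a substrate receptor of a ubiquitin ligase, held 0 and 0 against 11 and 108. On the higher side, Jun held 562 and 320 reads against 67 and 145, and Ssbp3 798 and 420 against 91 and 263. LOC108169004, Lurap1 and Zcchc11, the last a terminal uridylyltransferase gene, held 78 and 90, 51 and 80, and 49 and 60 reads in KO and none in WT. Adjusted p values of all these were 0.543 in edgeR's test. In AMPKα1, 285 of the 855 members tested had no read in either library of 1 genotype, against 3 of 395 in AMPKα2.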

How the data were processed

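WTTS-seq libraries were sequenced by the authors on an Ion PGM, quality filtered, stripped of leading Ts, mapped with TMAP and clustered into strand-specific APSs, and the deposited counts are whole reads per APS without normalization, on GRCm38.p5 per the labels. KO and WT were compared within each model by edgeR 4.0.16 (R 4.3.3, limma 3.58.1) with TMM scaling, a robust quasi-likelihood fit and Benjamini-Hochberg adjustment over all features with at least 16 reads in the 4 libraries. The threshold was an adjusted p under 0.1. Gene counts are sums over APSs, and site usage was tested with edgeR's diffSpliceDGE. The interaction of genotype and model used all 8 libraries, with dispersions shared by the models. DESeq2 1.42.0 and other settings were alternatives. Standard errors, the log2 fold change divided by the root of F, are approximate. With 2 mice a group, an exact two-sided permutation test cannot go below p = 0.333, so p values came from these fits. Code was tested on simulated data.

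Scaffold APSs were joined to interval APSs of the same symbol and strand, an alternative added after seeing the data. Locations came from the mouse GENCODE release M21, with hexamers sought within 40 bases upstream.

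Members, role lists and named genes were chosen with earlier results of these data known. Named were called members, the 10 members (AMPKα2) or 5 (AMPKα1) of lowest p per direction, the 5 nearest genes on each side of Prkaa2, 2 genes per role list and the APSs at the bounds. Results of 1 gene are not reported here. KO and WT mice share replicate numbers in the labels but are different mice.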

Additional observations from a re-analysis of the deposited data

Results flagged for a closer look

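The KO effect at LOC102643247, at 99932323, differed between the AMPKα1 and AMPKα2 models by 8.02 on the log2 scale (interaction of genotype and model, adjusted p = 0.0207, edgeR), with 0 and 1 reads in AMPKα1 KO against 119 and 190 in WT, and 16 and 25 reads in AMPKα2 KO against 49 and 18 in WT. The interaction fit shared its dispersions between the models, although the AMPKα1 libraries varied more from each other than the AMPKα2 libraries. Groups of 2 libraries were too small for a test of single outlying libraries.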

How the results depend on the processing

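With 2 libraries a group, most calls depended on the processing. The 2 AMPKα2 interval APSs called by DESeq2 were 3.03% of 66 with an adjusted p, against 2.16% of 4441 over all APSs. For settings whose share over all features is not given, the counts below do not compare the interval with the background. AMPKα2 interval APSs called were 1 as reported, 2 with DESeq2, 2 with library totals in place of TMM, 13 without the filter on low counts, 0 in a fit of all 8 libraries, 0 with scaffold copies joined, and 0 to 3 with 1 library left out. Those at an unadjusted p under 0.05 were 26 as reported, 14 with DESeq2, 51 without the filter, 17 with a stricter one, 14 with all 8 libraries, and 15 (without AMPKα2 WT 1) to 34 (without AMPKα2 KO 2) with 1 library left out. AMPKα2 interval genes called were 3 as reported, 5 with library totals, 9 without the filter, 0 with all 8 libraries, 0 with copies joined, and 0 to 4 with 1 library left out. Genes called in site usage went from 1 to 0 with copies joined and were 0 to 1 with 1 library left out. AMPKα1 interval APSs called were 0 as reported, 4 with DESeq2, 1 with library totals, 1 without the filter, 2 with all 8 libraries, and 0 to 2 with 1 library left out. The interaction gave 1 APS as reported, 0 with the stricter filter, and 0 to 20 with 1 library left out. With the replicate block, 11 AMPKα2 interval APSs were called, 4 higher and 7 lower, and 37 had an unadjusted p under 0.05. The share over all APSs in that fit is not given, so these counts do not set the interval apart. Same-numbered KO and WT mice are different mice, and their deviations correlated at 0.03 in AMPKα2 and 0.01 in AMPKα1. With copies joined, Tmem234 turned to 0.80 on the log2 scale at its APS and 0.93 as a gene, and with all 8 libraries Ssbp3 turned to 0.048. With 1 library left out, AMPKα2 log2 fold changes that crossed 0 ran from -0.58 to 0.023 for Dab1, -0.73 to 1.36 for Gm12716, -0.43 to 1.18 for Slc35d1, -0.44 to 0.28 for Ssbp3, -0.26 to 0.31 for Usp24 and -0.66 to 0.092 for LOC102643247. Where 1 library was left out, the lone library of a group is assumed to vary like the others. Apart from the joining of copies, whose construction adds the scaffold reads, the cause of these changes was not tested. Depth limits most members, since 395 of 1068 had enough reads to be tested in AMPKα2.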
